A study of Homo sapiens with 15 samples.

Results

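The experiment compared 3 arrays of MV4-11 cells treated with RVX208 at 5 uM and 3 arrays of cells that received the vehicle DMSO, out of 15 arrays in the series. MV4-11 is an established human acute myeloid leukemia line that carries a KMT2A-AFF1 fusion and an internal duplication of FLT3. The cells were kept in RPMI1640 with fetal bovine serum, plated in 6-well plates on the day before, and exposed for 24 h. The other arrays held OTX015, DW71177 and DW71374, each at 300 nM for 24 h, with 3 arrays per compound, and every group came from this same line. Groups were taken from the sample titles, and the comparison covers the 14812 genes that the platform annotation named, each read from whichever of its features averaged highest across all 15. Labels describe wells treated in triplicate without saying whether these were separate cultures, so p-values reflect only how far these arrays scatter, and that scatter may be technical.

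BET proteins bind acetylated histones through paired bromodomains and help RNA polymerase II leave promoters by way of the kinase complex P-TEFb. RVX208, or apabetalone, is a BET inhibitor that prefers the second bromodomain and was developed around its effect on apolipoprotein A-I in liver cells. OTX015, or birabresib, binds both bromodomains. In acute myeloid leukemia, BET inhibition is known for lowering MYC and the survival gene BCL2 and for raising HEXIM1, the inhibitor of P-TEFb.

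Values are log2 signals from an Affymetrix whole-transcript array, as the authors deposited them, and a difference of 1 is 2-fold. The median over genes was 4.73 to 4.74 in the RVX208 arrays, against 4.73 to 4.75 in the DMSO arrays, so differences are relative to the array as a whole. No background level was available, so genes whose lower group mean was under 5 are called dim, and their folds are at best lower bounds. Less RNA per cell and fewer cells of a kind cannot be told apart in bulk RNA. Of the 6 measured myeloid markers, 5 had a mean level above 5 in DMSO arrays, and 3 were called lower with RVX208 (LYZ by 0.75, CSF1R by 0.33 and MPO by 0.49 on the log2 scale). Over all genes 6.52% were called, and 16.4% at these markers' median level of 7.25. FLT3, SPI1 and CD4 were not called, with FLT3 at 9.81 ± 0.05 with RVX208 and 9.80 ± 0.06 with DMSO (SD, n = 3 each). The lymphoid, erythroid, megakaryocytic, epithelial, stromal and hepatocyte markers held 16 measured genes, of which 0 passed limma's test at the adjusted threshold. Only KRT18, KRT8, EPOR and PF4 among these 16 were above 5 in DMSO arrays, and KRT18 read 7.65 ± 0.15 with RVX208 and 7.74 ± 0.02 with DMSO (SD, n = 3 each).

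RVX208 moved 966 genes past limma's test (Benjamini-Hochberg adjusted p under 0.05), 6.52% of the genes tested. Of these, 505 were higher with RVX208 (3.41%) and 461 were lower (3.11%). The changes were small, with a median size of 1.29-fold among called genes. Only 13 called genes differed by 2-fold or more, 1 of them higher and 12 lower, another 112 differed by 1.5-fold to 2-fold, and 841 by less than 1.5-fold. At an unadjusted p under 0.05 there were 2938 genes. For 90.9% of all genes the 95% confidence interval stayed inside 1.5-fold in both directions, and for 99.4% inside 2-fold. When any 1 of the 6 arrays was left out, the count was 564 to 636, lowest without DMSO replicate 3, and it was 609 when only these 6 arrays were fitted.

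How many genes passed followed the signal level. The share called was 0.693% among genes with a mean level under 3, 2.05% between 3 and 5, 9.72% between 5 and 7, 16.4% between 7 and 9 and 20.1% at 9 and over. Protein-coding genes were called in 7.64% of 11911 cases, long noncoding RNAs in 2.52% of 1387 and microRNA genes in 1.27% of 1022. The median level was 5.15 for protein-coding genes, 3.52 for long noncoding RNAs and 2.85 for microRNA genes, so gene type and level moved together. In the plot of level against difference, the 12 genes past 2-fold downward form a tail with no counterpart on the upper side.

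**Figure D1:**
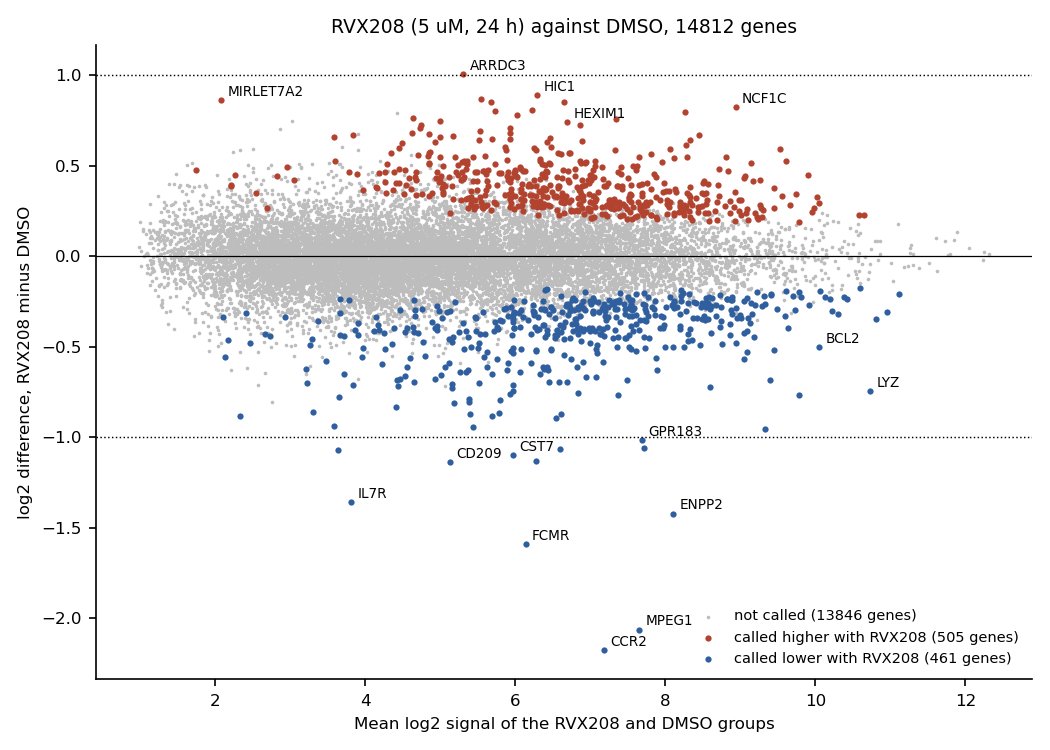
Each point is 1 of 14812 genes, with the mean log2 signal of both groups on the x axis and the log2 difference, RVX208 minus DMSO, on the y axis. Red points were called higher with RVX208 (505) and blue points lower (461); dotted lines mark 2-fold, which CCR2 and MPEG1 pass farthest downward and ARRDC3 alone reaches upward.

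The 2 largest falls with RVX208 were those of CCR2 and MPEG1. CCR2, the receptor by which monocytes follow the chemokine CCL2, read 6.11, 6.19 and 5.96 in the RVX208 arrays, against 8.20, 8.29 and 8.31 in the DMSO arrays. That is a log2 difference of -2.18 ± 0.10 (SE), or 4.52-fold lower (limma adjusted p = 3.76e-08). The groups did not overlap, which the rule for the largest changes required. The same held for all 966 called genes and for 26% of all genes tested. MPEG1, the pore-forming perforin-2 of macrophages, read 6.62 in each RVX208 array, against 8.65, 8.65 and 8.75 in the DMSO arrays. The difference was -2.06 ± 0.10 (adjusted p = 1.10e-07). The 3 RVX208 arrays held 1 and the same deposited MPEG1 value, so its error comes from the other groups and from limma's shared variance.

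FCMR, the Fc receptor for IgM, read 5.34, 5.20 and 5.49 with RVX208, against 6.82, 7.0 and 6.98 with DMSO, a difference of -1.59 ± 0.10 (limma adjusted p = 2.29e-06). ENPP2 encodes autotaxin, the secreted enzyme that makes lysophosphatidic acid. It read 7.39 in all RVX208 arrays at this rounding, against 8.80, 8.79 and 8.85 with DMSO, which is 2.68-fold lower (adjusted p = 3.28e-08). CST7, an inhibitor of lysosomal cysteine proteases in myeloid cells, read 5.31, 5.37 and 5.59 with RVX208, against 6.62, 6.46 and 6.47 with DMSO (difference -1.10 ± 0.10, adjusted p = 2.86e-05). In each of these genes the highest RVX208 array lay more than 0.8 below the lowest DMSO array.

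GPR183, a receptor for oxysterols that positions leukocytes in tissue, read 7.29, 7.13 and 7.11 with RVX208, against 8.14, 8.14 and 8.29 with DMSO, a difference of -1.02 ± 0.11 (limma adjusted p = 1.06e-04). ZBTB33, which encodes the transcription factor Kaiso, was 2.09-fold lower (adjusted p = 3.84e-06), and DTX4, a ubiquitin ligase of the Deltex family, was 2.10-fold lower (adjusted p = 1.55e-05). OCSTAMP, a membrane protein of osteoclast fusion, fell by 1.13 ± 0.19 on the log2 scale (adjusted p = 0.003). The remaining members of the 12 largest falls were dim. IL7R, the interleukin-7 receptor chain, averaged 3.13 with RVX208 and 4.49 with DMSO. CD209, a lectin of dendritic cells and macrophages, averaged 4.56 and 5.70, and the antisense RNA LCT-AS1 3.10 and 4.17, in the same order of groups. All 3 passed the test, with adjusted p = 3.25e-05 for IL7R, 3.84e-04 for CD209 and 0.00354 for LCT-AS1.

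The largest rise was in ARRDC3, an alpha-arrestin that sends membrane receptors for degradation. It read 5.85, 5.86 and 5.71 with RVX208, against 4.79, 4.76 and 4.86 with DMSO, a difference of 1.01 ± 0.12 (limma adjusted p = 2.23e-04). HIC1, a zinc-finger repressor first known as a gene hypermethylated in cancer, read 6.81, 6.81 and 6.59 with RVX208, against 5.82, 5.84 and 5.88 with DMSO (0.89 ± 0.09, adjusted p = 1.03e-04). Both genes had every RVX208 array above every DMSO array by at least 0.7. POPDC1, a cyclic-AMP-binding membrane protein, rose by 0.87 ± 0.08 (adjusted p = 4.39e-05). ZYG11B, a substrate receptor of a cullin-2 ubiquitin ligase, and ROPN1L, a protein known from the sperm tail, each rose by 0.85, with adjusted p = 3.47e-05 for ZYG11B and 2.51e-04 for ROPN1L.

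NCF1C and NCF1B, near-identical copies of the gene for the p47 subunit of the phagocyte NADPH oxidase, rose by 0.83 ± 0.07 and 0.80 ± 0.08 (limma adjusted p = 3.06e-05 for NCF1C and 1.03e-04 for NCF1B). Signal from these copies and from NCF1 may not be separable on the array, and NCF1 was not analysed here. SLFN5, a Schlafen family member induced by interferon, rose by 0.81 ± 0.13 (adjusted p = 0.00258), and TP53INP1, a p53-inducible stress protein, by 0.78 ± 0.11 (adjusted p = 9.68e-04). The antisense RNA LPP-AS2 rose by 0.76 ± 0.10 (adjusted p = 6.81e-04). MIR124-1HG was called at 0.80 ± 0.21 (adjusted p = 0.0352), but lost that call without any 1 of the 6 arrays (highest adjusted p = 0.126). The microRNA gene MIRLET7A2, also among the 12 largest rises, is described with the other microRNA genes.

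**Figure D2:**
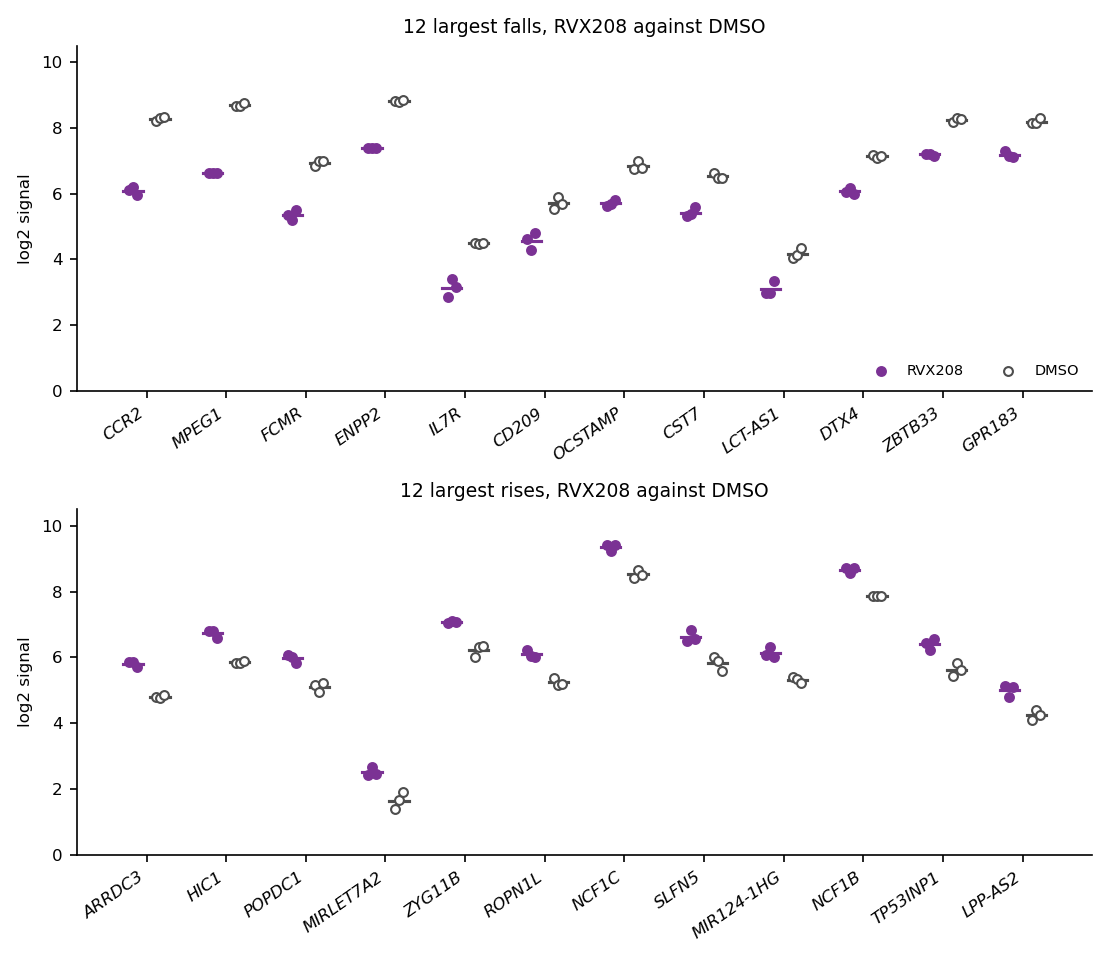
Log2 signal (y axis, from 0) of the 12 genes with the largest falls (upper panel) and the 12 with the largest rises (lower panel), with filled points for the 3 RVX208 arrays, open points for the 3 DMSO arrays and bars for group means. The genes were chosen as the largest called changes without overlap between groups; levels run from MIRLET7A2, at 1.40 to 2.66, to NCF1C, at up to 9.41.

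Among the genes through which BET inhibition is usually read in leukemia, HEXIM1 was higher with RVX208, and MYC and BCL2 were lower. HEXIM1 read 7.05, 7.09 and 7.03 with RVX208, against 6.28, 6.28 and 6.39 with DMSO, a rise of 0.74 ± 0.07 (limma adjusted p = 3.47e-05). MYC read 8.97, 8.98 and 9.04 with RVX208, against 9.31, 9.29 and 9.35 with DMSO, 1.25-fold lower (adjusted p = 0.00265). BCL2 fell to 9.81, 9.80 and 9.78 with RVX208, against 10.28, 10.32 and 10.30 with DMSO, a difference of -0.50 ± 0.05 (adjusted p = 3.47e-05).

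CDK6, a G1 kinase on which KMT2A-fusion leukemias rely, fell by 0.33 ± 0.06 (limma adjusted p = 0.00589), and CCND2, a D cyclin that activates it, by 0.54 ± 0.07 (adjusted p = 3.49e-04), while a second and dimmer CCND2 feature fell short of the test at -0.26 (adjusted p = 0.166 over all features). Several genes of the leukemia program did not pass. MEIS1 differed by 0.17 (adjusted p = 0.294), MYB by -0.02 (adjusted p = 0.899), FLT3 by 0.02 (adjusted p = 0.914) and KIT by -0.36 (adjusted p = 0.101). Of the 19 measured genes of the KMT2A-fusion program, 2 rose and 2 fell, with a median of -0.02 against -0.01 over all genes. The share called, 21.1%, was near the 16.4% of all genes at the list's median level of 7.49. With an array left out 3 to 5 were called. PSIP1, the chromatin partner of menin and KMT2A, was among those that rose (0.31 ± 0.06, adjusted p = 0.00416). Among 16 BET and P-TEFb genes, 2 rose, HEXIM1 and SUPT6H, and 0 fell (12.5% called, against 16.4% of all genes at the list's median level of 7.46), and 1 to 2 were called with an array left out. BRD2 differed by 0.20 (adjusted p = 0.063), with its lowest RVX208 array at 6.90 and its highest DMSO array at 6.81.

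Some genes for making lipids fell with RVX208, and a few for storing and moving cholesterol rose, while most members of each list did not pass the test. Cholesterol synthesis runs from HMGCS1 through a chain of sterol enzymes under the control of SREBP2, and fatty acid synthesis runs through FASN and SCD under SREBP1. Of 21 measured genes of cholesterol synthesis and uptake, 5 fell and 0 rose, 23.8% called against 6.52% of all genes, with a median difference of -0.19 against -0.01. The number called was 4 to 5 with any array left out. MSMO1, a sterol demethylating oxidase, read 7.19, 7.06 and 7.20 with RVX208, against 7.81, 7.80 and 7.89 with DMSO (-0.68 ± 0.08, limma adjusted p = 1.54e-04). HMGCS1, the synthase at the head of the pathway, fell by 0.43 ± 0.07 (adjusted p = 0.00213), and TMEM97, a sterol-responsive membrane protein, by 0.50 ± 0.07 (adjusted p = 6.87e-04).

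Of 26 measured genes of fatty acid synthesis and desaturation, 5 fell and 0 rose (19.2% called, median -0.10), and 5 were called with each array left out. At the list's median level of 5.66, the share called among all genes was 9.72%. SCD, the desaturase that makes oleic acid, read 9.07, 9.10 and 9.0 with RVX208, against 9.70, 9.73 and 9.79 with DMSO, 1.61-fold lower (limma adjusted p = 3.06e-05). A dimmer second SCD feature fell by 0.63. FASN, the fatty acid synthase, fell by 0.49 ± 0.06 (adjusted p = 2.51e-04), FADS1 by 0.40 ± 0.07 (adjusted p = 0.00464) and ACSL5, which activates fatty acids with coenzyme A, by 0.80 ± 0.12 (adjusted p = 9.72e-04).

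On the other side, 3 of 8 measured genes of cholesterol efflux and the liver X receptor rose and 0 fell (median 0.17), and 2 to 3 were called with an array left out. That list had 37.5% called, against 9.72% of all genes at its median level of 6.19. SOAT1, which esterifies cholesterol for storage, read 7.62, 7.82 and 7.71 with RVX208, against 7.23, 7.36 and 7.25 with DMSO (0.43 ± 0.06, limma adjusted p = 9.85e-04). PLTP, the phospholipid transfer protein, rose by 0.42 ± 0.08 (adjusted p = 0.00585). Of 16 genes of fatty acid oxidation and the peroxisome, 3 rose and 0 fell, but only 1 to 3 were called with an array left out. Its share called was 18.8%, against 9.72% of all genes at the list's median level of 6.73. The apolipoprotein, complement and coagulation list covers the genes for which RVX208 is known in liver. It had 3 of 43 called, 2 higher and 1 lower (7.0%, against 6.52% of all genes). Of the 43, 38 were dim. At the list's median level of 4.08, the share called among all genes was 2.05%. APOA1, which encodes apolipoprotein A-I, was dim, at 4.46, 4.61 and 4.27 with RVX208 and 4.78, 4.34 and 4.60 with DMSO (adjusted p = 0.795). THBD, the endothelial and monocytic anticoagulant thrombomodulin, read 7.06, 6.98 and 6.90 with RVX208, against 7.62, 7.80 and 7.82 with DMSO (-0.77 ± 0.09, adjusted p = 1.94e-04). CFD rose by 0.30 ± 0.06 (adjusted p = 0.0112) and C5 by 0.37 ± 0.08 (adjusted p = 0.0149), both genes of complement. Each lost its call in some fits without an array (highest adjusted p = 0.056 for CFD and 0.0706 for C5).

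A minority of the genes that supply amino acids and charge transfer RNAs fell with RVX208. PHGDH and PSAT1 carry out the opening steps of serine synthesis. PHGDH read 5.15, 5.17 and 5.18 with RVX208, against 5.88, 5.86 and 5.86 with DMSO (-0.70 ± 0.10, limma adjusted p = 9.45e-04), and PSAT1 read 8.72, 8.77 and 8.77, against 9.32, 9.33 and 9.33 (-0.57 ± 0.06, adjusted p = 1.28e-04). MTHFD1L, a mitochondrial one-carbon enzyme, fell by 0.45 ± 0.07 (adjusted p = 0.0016). VLDLR, a lipoprotein receptor counted here as a target of the amino acid stress factor ATF4, fell by 0.70 ± 0.06 (adjusted p = 1.57e-05). Of 23 measured genes of serine, one-carbon and amino acid stress, 6 fell and 1 rose (30.4% called, median -0.13), and 5 to 7 were called with an array left out. At the list's median level of 5.77, the share called among all genes was 9.72%.

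Of 19 measured aminoacyl-tRNA synthetases, the enzymes that load each amino acid onto its tRNA, 8 fell and 0 rose, 42.1% called, with 16 of 19 below 0 and a median of -0.17. The count was 4 to 6 with any array left out. At the list's median level of 8.62, the share called among all genes was 16.4% (levels 7 to 9). IARS1 (isoleucine) read 8.86, 8.91 and 8.89 with RVX208, against 9.34, 9.29 and 9.27 with DMSO (-0.41 ± 0.05, limma adjusted p = 3.19e-04). AARS1 (alanine) fell by 0.26 ± 0.05 (adjusted p = 0.00479), YARS1 (tyrosine) by 0.28 ± 0.05 (adjusted p = 0.00495) and LARS1 (leucine) by 0.34 ± 0.06 (adjusted p = 0.00561).

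The promoters of IARS1 and AARS1 are shown because the amino acid response acts on such genes through a short element, TGATGNAA, to which ATF4 binds with C/EBP proteins. They are RefSeq sequences of GRCh38.p14 from 250 bases before to 50 bases after the annotated start, on the minus strand of chr9:92293648-92293947 (IARS1) and chr16:70289457-70289756 (AARS1). Capitals mark TGATGNAA, which stands on the other strand and so reads TTGCATCA here, and in IARS1 also the E-box CACGTG, the palindrome bound by MYC with MAX. The marked motifs do not overlap.
IARS1: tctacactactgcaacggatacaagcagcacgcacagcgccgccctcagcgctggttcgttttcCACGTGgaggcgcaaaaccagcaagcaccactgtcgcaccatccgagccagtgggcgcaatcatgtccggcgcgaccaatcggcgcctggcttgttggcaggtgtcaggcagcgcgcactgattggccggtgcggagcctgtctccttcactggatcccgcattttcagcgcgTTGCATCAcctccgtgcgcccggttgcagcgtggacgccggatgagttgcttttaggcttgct
AARS1: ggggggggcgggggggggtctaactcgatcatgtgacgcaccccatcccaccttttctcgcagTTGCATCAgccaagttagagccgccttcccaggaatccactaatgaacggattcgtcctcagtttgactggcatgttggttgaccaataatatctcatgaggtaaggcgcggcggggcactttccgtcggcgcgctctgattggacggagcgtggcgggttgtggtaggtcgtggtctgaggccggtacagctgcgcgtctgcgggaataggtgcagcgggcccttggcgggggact
Searched on both strands, TGATGNAA was in 3.62% and CACGTG in 7.26% of the 35116 RefSeq promoters of this length. Among the 19 measured synthetases, 15 had promoters in the table, 22 in all. TGATGNAA was in 7 of these (31.8%), and CACGTG in only 1 (4.55%), below its share of all promoters. Of the 8 synthetases that fell, 5 had promoters there. TGATGNAA was in 5 of their 6 promoters (83.3%) and CACGTG in 1 (16.7%). In the serine, one-carbon and amino acid stress list, CACGTG was in 5 of 31 promoters (16.1%) and TGATGNAA in 6 (19.4%). For its genes that fell, CACGTG was in 5 of 9 promoters (55.6%) and TGATGNAA in 3 (33.3%). In the ribosome biogenesis list described next, CACGTG was in 28 of 75 promoters (37.3%) and TGATGNAA in 1. For the genes of that list that fell, CACGTG was in 11 of 22 promoters (50%) and TGATGNAA in 0. A match is a run of letters and not evidence of a bound factor.

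Some factors that build ribosomes fell with RVX208, and 0 rose. Of 84 measured genes of ribosome biogenesis and the nucleolus, 23 fell, 27.4% called against 6.52% of all genes and 16.4% of genes at the list's median level of 7.47. Of the 84, 76 lay below 0, with a median of -0.19 against -0.01 over all genes. The count called was 13 to 18 with an array left out, and it was under 16 without DMSO replicate 3, RVX208 replicate 1 or RVX208 replicate 3. MYBBP1A, a nucleolar protein that binds MYB, read 7.46, 7.51 and 7.45 with RVX208, against 8.01, 7.96 and 7.97 with DMSO (-0.51 ± 0.06, limma adjusted p = 2.53e-04). NIP7 fell by 0.47 ± 0.07, MRTO4 by 0.45 ± 0.07 and RRP1 by 0.40 ± 0.06, all factors that assemble or process the large subunit, with adjusted p = 9.68e-04 for NIP7, 0.0011 for MRTO4 and 9.68e-04 for RRP1.

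The ribosome's own proteins were called no more often than all genes, although most lay slightly below 0. Of 50 cytosolic ribosomal proteins 2 fell (4.0%), and of 73 mitochondrial ribosomal proteins 4 fell (5.5%), with medians of -0.07 and -0.08. Over all genes 6.52% were called, with a median of -0.01, and 9.72% at the lists' median levels of 6.72 and 6.80. Below 0 lay 35 of the 50 and 51 of the 73, against 7816 of all 14812 genes. MRPL3 was the clearest of them, at 8.65, 8.72 and 8.75 with RVX208 and 9.16, 9.18 and 9.22 with DMSO (limma adjusted p = 2.63e-04). With an array left out 1 to 3 cytosolic and 1 to 2 mitochondrial ribosomal proteins were called. Of 18 chaperones 5 fell (27.8%, against 9.72% of all genes at the list's median level of 6.03), or 3 to 5 with an array left out. HSPA9 was lower by 1.25-fold (adjusted p = 0.00135), HSPD1 by 1.22-fold (adjusted p = 0.00479) and HSPH1 by 1.20-fold (adjusted p = 0.0086). EIF4EBP1, the repressor of cap-dependent translation and an ATF4 target, fell by 0.46 ± 0.07 (adjusted p = 0.00191).

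Some nucleotide synthesis, DNA replication and mitosis genes fell by small steps, and most did not pass the test. Of 32 DNA replication genes 10 fell and 0 rose (31.2% called, median -0.18, 7 to 8 called with an array left out). MCM6, a subunit of the replicative helicase, read 8.75, 8.74 and 8.70 with RVX208, against 9.07, 9.07 and 9.02 with DMSO (-0.32 ± 0.05, limma adjusted p = 0.00102), and its partners MCM2 and MCM7 fell by 0.37 and 0.34. Of 62 mitosis genes 11 fell and 0 rose (17.7% called, median -0.13), near the 16.4% of all genes at that level, and the count came to 5 to 7 with any array left out. CDC25A, the phosphatase that releases S phase and a MYC target, fell by 0.51 ± 0.07 (adjusted p = 7.74e-04) and the spindle checkpoint kinase BUB1B by 0.41 ± 0.06 (adjusted p = 0.00132). Of 29 nucleotide synthesis genes 8 fell and 0 rose (27.6% called), or 3 to 5 with any array left out, and PFAS of purine synthesis fell by 0.50 ± 0.07 (adjusted p = 0.001). Median levels of these 3 lists were 7.33 to 7.55, where 16.4% of all genes were called.

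Lysosome and alpha-arrestin genes that passed the test were all higher with RVX208. Of 48 measured lysosome and autophagy genes, 10 rose and 0 fell (20.8% called, median 0.09), or 7 to 9 with an array left out. The share called was 6.52% over all genes and 9.72% at the list's median level of 6.29. PSAP, the precursor of the saposins that help break down sphingolipids, read 8.73, 8.82 and 8.79 with RVX208, against 8.17, 8.11 and 8.04 with DMSO (0.67 ± 0.06, limma adjusted p = 3.47e-05). GABARAPL2, an autophagosome protein of the ATG8 family, rose by 0.59 ± 0.06 (adjusted p = 9.94e-05), the protease CTSB by 0.47 ± 0.06 (adjusted p = 3.59e-04) and the mitophagy receptor BNIP3L by 0.42 ± 0.05 (adjusted p = 2.68e-04).

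Alpha-arrestins guide receptors and glucose transporters into the cell, and TXNIP and ARRDC4 are the classical targets of the glucose sensor MondoA. Of 6 measured alpha-arrestins 3 rose, ARRDC3, ARRDC4 and TXNIP, and 0 fell. With MLX, MLXIP and MLXIPL, the glucose sensing factors that complete the list of 9, the number called was also 3, and it was 3 with each array left out. The share called in this list of 9 was 33.3%, against 6.52% of all genes. The list's median level lay between 5 and 7, where 9.72% of all genes were called. ARRDC4 read 7.71, 7.76 and 7.71 with RVX208, against 6.87, 7.07 and 6.97 with DMSO (0.76 ± 0.07, limma adjusted p = 3.25e-05). TXNIP read 9.89, 9.86 and 9.74, against 9.23, 9.27 and 9.20 (0.59 ± 0.07, adjusted p = 2.68e-04), and its second, dimmer feature rose by 1.02. The ARRDC4 promoter is shown because MondoA reads E-box pairs (RefSeq, GRCh38.p14, chr15:97960453-97960752, plus strand, same window), with CACGTG in capitals at bases 41 to 46. The exact letters CACGTG were not in the windows of ARRDC3 or TXNIP. Looser forms of the E-box and pairs of them were not searched for, so their presence or absence in these windows is not shown.
ARRDC4: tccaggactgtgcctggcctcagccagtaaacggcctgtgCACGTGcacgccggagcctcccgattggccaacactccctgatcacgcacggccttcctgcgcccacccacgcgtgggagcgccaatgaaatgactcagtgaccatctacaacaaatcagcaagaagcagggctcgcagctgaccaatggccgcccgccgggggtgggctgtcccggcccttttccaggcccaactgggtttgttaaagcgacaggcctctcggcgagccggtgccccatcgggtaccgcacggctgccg

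**Figure D3:**
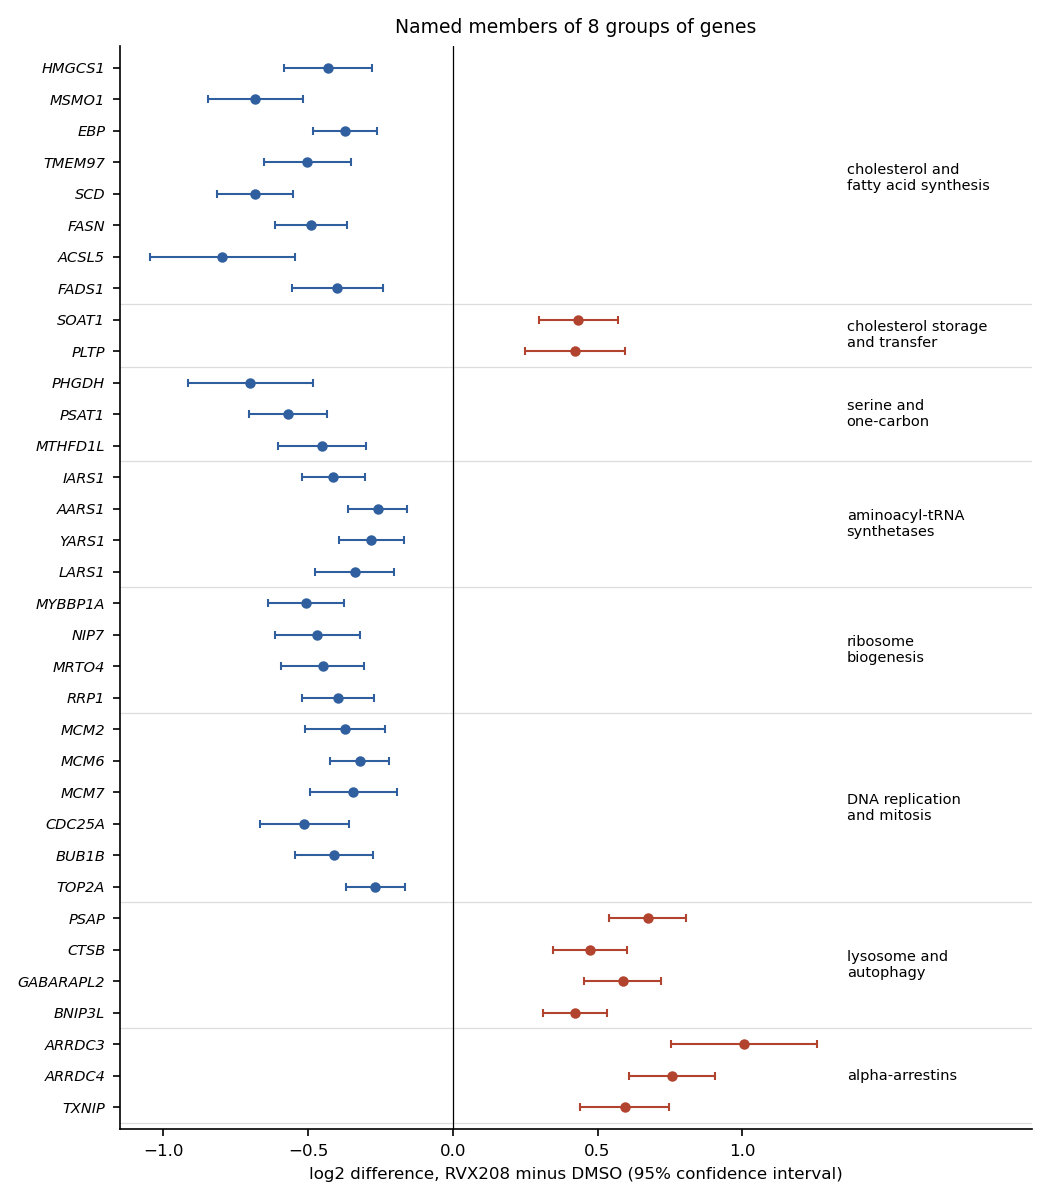
Log2 difference, RVX208 minus DMSO (x axis), with its 95% confidence interval from limma, for 34 named genes in 8 groups. All 34 were shown because they passed the test, so the plot gives sizes only, from ACSL5 at -0.80 to ARRDC3 at 1.01.

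Myeloid effector genes moved both ways. Of 22 neutrophil granule genes 6 fell and 0 rose (27.3% called, against 6.52% of all genes and 2.05% at the list's median level of 4.16). Their median of -0.25 was the lowest of the lists with 8 or more measured members, although 17 of the 22 were dim. Without an array 4 to 6 were called. The summed level of the 6 measured myeloid markers, which include LYZ, was 45.37 to 45.57 in RVX208 arrays and 46.80 to 47.0 in DMSO arrays, with 3 of the 6 called lower (LYZ, CSF1R and MPO, 1 to 2 with an array left out). At the median level of these markers, 7.25, the share called among all genes was 16.4%. The part of such markers in these results was not tested. LYZ, lysozyme, was bright and read 10.39, 10.39 and 10.31 with RVX208, against 11.09, 11.08 and 11.15 with DMSO (-0.75 ± 0.06, limma adjusted p = 1.02e-05), and a second LYZ feature fell by 0.89. PRTN3, proteinase 3, fell by 0.35 ± 0.06 (adjusted p = 0.00182) and CTSG, cathepsin G, by 0.81 ± 0.12 (adjusted p = 0.00102). CCR1 and CXCR4, chemokine receptors of monocytes and of marrow homing, fell by 0.52 ± 0.06 (adjusted p = 1.71e-04) and 0.40 ± 0.06 (adjusted p = 0.00104). Of 40 leukocyte G protein-coupled receptors 5 fell and 1 rose (15% called), and of 38 pattern-recognition, Fc and lectin receptors 5 fell and 1 rose (15.8%), against 6.52% of all genes. The one that rose in the second list was TLR5, the receptor for flagellin, at 5.16, 5.14 and 5.03 with RVX208 and 4.53, 4.56 and 4.57 with DMSO (adjusted p = 2.08e-04).

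CD86, a co-stimulatory ligand on antigen-presenting cells, read 5.77, 5.89 and 5.84 with RVX208, against 5.17, 5.19 and 5.22 with DMSO (0.64 ± 0.08, limma adjusted p = 2.53e-04). Among secreted factors, PDGFA fell by 0.87 ± 0.06 (adjusted p = 3.84e-06) and IGF1 by 0.72 ± 0.08 (adjusted p = 1.12e-04). IGF1 read 8.23, 8.19 and 8.27 with RVX208, against 8.88, 9.07 and 8.90 with DMSO. Of 45 interferon-stimulated genes 7 rose and 4 fell (24.4% called, against 6.52% of all genes), or 4 to 7 called in all with an array left out. The list's median level of 4.91 lay near 5, with 2.05% of all genes called at levels 3 to 5 and 9.72% at 5 to 7. IRF7, the interferon regulatory factor, rose by 0.52 ± 0.06 (adjusted p = 2.51e-04), and SP110 by 0.43 ± 0.07 (adjusted p = 0.00122). BST2 was among those that fell, averaging 7.44 with RVX208 and 7.85 with DMSO (difference -0.41). It lost its call without DMSO replicate 2, DMSO replicate 3 or RVX208 replicate 3.

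Of 26 NF-kB and inflammatory genes 5 rose and 0 fell (19.2% called, against 6.52% of all genes and 9.72% at the list's median level of 6.10), a count that was 3 to 5 with an array left out. DUSP6, a phosphatase that shuts off ERK and is itself induced by it, rose by 0.46 ± 0.06 (limma adjusted p = 6.02e-04). Among 51 myeloid transcription factors, 4 rose, HIC1 and IRF7 among them, and 4 fell (15.7% called, against 9.72% of all genes at the list's median level of 5.89). ETS2 fell by 0.53 ± 0.06 (adjusted p = 1.06e-04) and FOSL1, an AP-1 subunit, by 0.48 ± 0.07 (adjusted p = 8.75e-04). The list of histone and DNA modifying enzymes had 3 of 85 higher and 5 lower. Its share called was 9.41%, near the 9.72% of all genes at its median level of 6.42. Among histone and protein methylating and acetylating enzymes, KAT2B rose by 0.65 ± 0.07 (adjusted p = 8.16e-05) and its paralogue KAT2A fell by 0.45 ± 0.08 (adjusted p = 0.00395). KAT2B read 6.78, 6.86 and 6.72 with RVX208 and 6.21, 5.99 and 6.21 with DMSO, and KAT2A read 7.23, 7.01 and 7.21 with RVX208 and 7.60 in each DMSO array. PRMT1 and PRMT5, arginine methyltransferases, fell by 0.42 and 0.45 (adjusted p = 0.00149 and 0.00422).

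**Figure D4:**
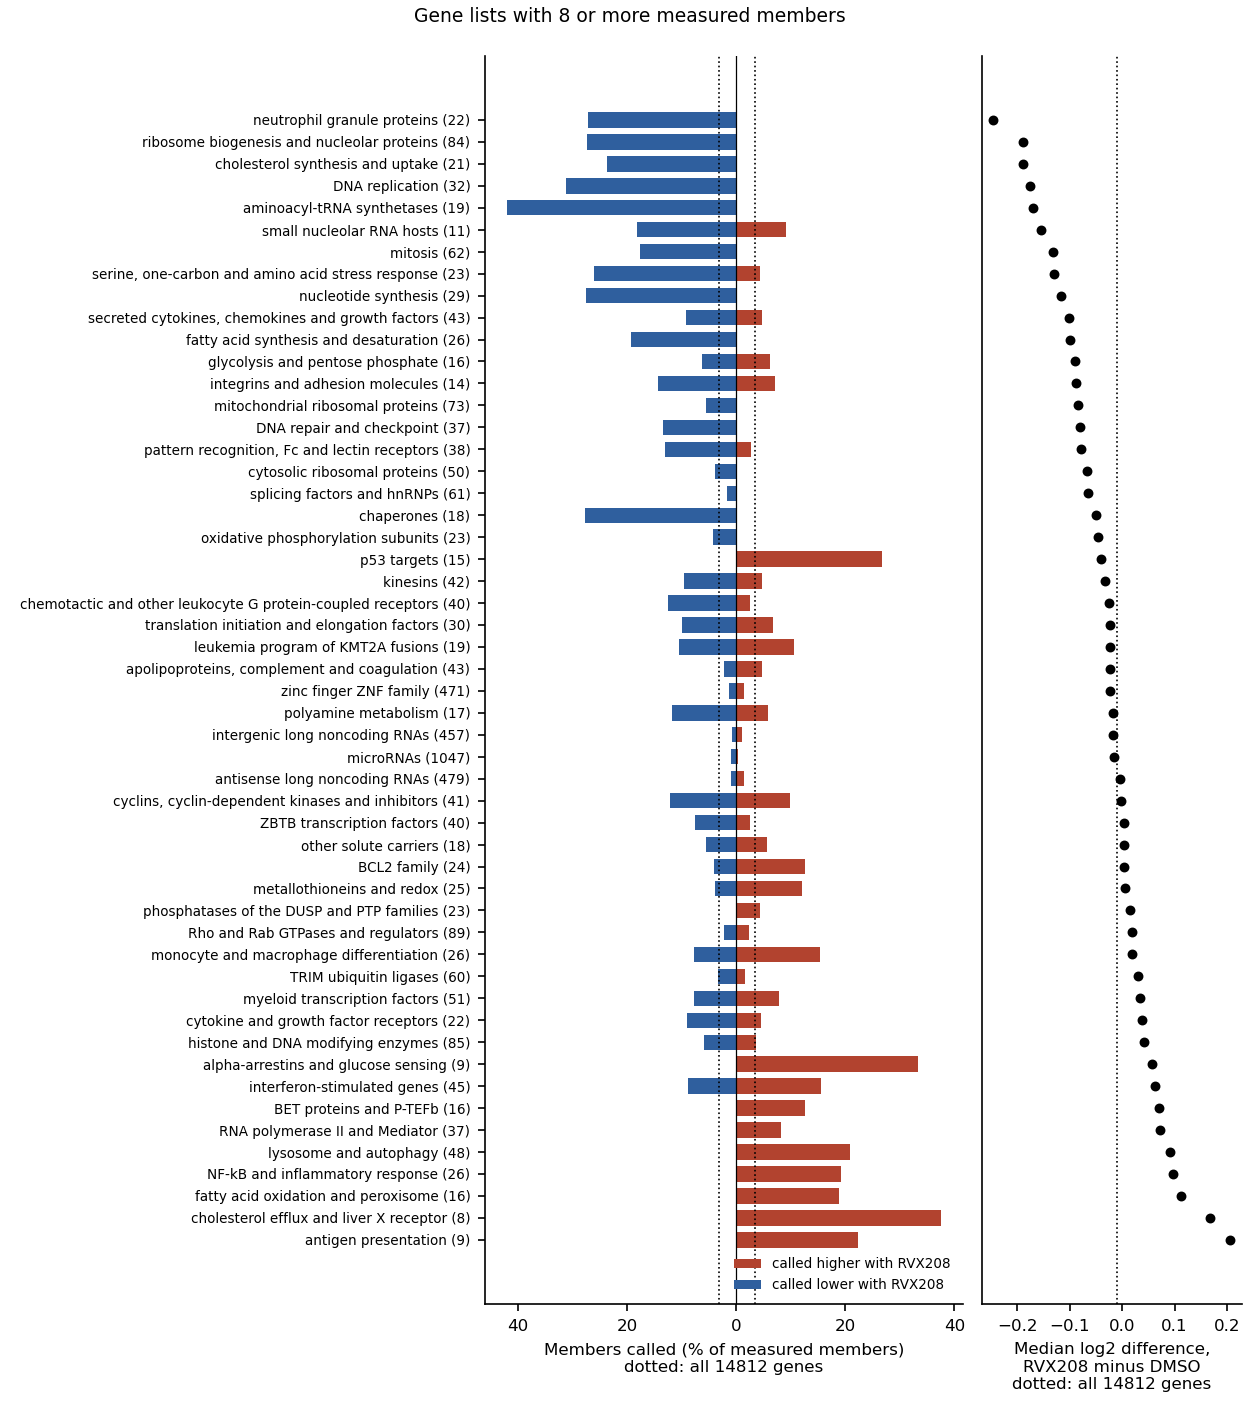
Share of measured members called lower (blue, left) or higher (red, right) with RVX208, and the median log2 difference, RVX208 minus DMSO, of each list with 8 or more measured members (number in brackets); dotted lines give all 14812 genes. Granule, ribosome biogenesis, cholesterol synthesis, replication and tRNA synthetase lists carry blue bars only, the last the longest at 42.1%, while the zinc finger, intergenic, antisense and microRNA lists stay inside the dotted lines.

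MicroRNA genes were mostly dim and rarely called. Of 1022 measured, 3 were called higher and 10 lower with RVX208, and 870 had both group means under 5. The array probes RNA of the locus, and whether the signal came from the mature form, the precursor or a longer transcript was not tested. Those shown are the called genes of the let-7 and miR-223 families, which are known for opposing growth genes and for marking granulocytes, and MIR1296, with the seed (bases 2 to 8) in capitals. They are RefSeq sequences (GRCh38.p14), from the minus strand of chromosome 11 for let-7a, the plus strand of chromosome X for miR-223 and the minus strand of chromosome 10 for miR-1296.
hsa-let-7a-5p: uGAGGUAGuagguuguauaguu
hsa-miR-223-3p: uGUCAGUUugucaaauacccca
hsa-miR-1296-3p: gAGUGGGGcuucgacccuaacc
The 3 seeds differ from each other. MIRLET7A2 read 2.42, 2.66 and 2.45 with RVX208, against 1.40, 1.65 and 1.89 with DMSO (0.86 ± 0.14, limma adjusted p = 0.0021), so its level stayed low in both groups. MIR223, chosen here after its values were seen, averaged 6.57 with RVX208 and 6.87 with DMSO (adjusted p = 0.0268), and it lost the call without DMSO replicate 1, DMSO replicate 3 or any RVX208 array (highest adjusted p = 0.103). MIR1296 read 4.49, 4.55 and 4.57 with RVX208, against 4.97, 5.05 and 5.01 with DMSO (adjusted p = 0.00727).

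The RVX208 arrays were also tested directly against the arrays of OTX015, at 5 uM and 300 nM, so the test compares these arrays and not the compounds at a matched dose. Against OTX015, 2153 genes were called (14.5%), 1405 higher (9.49%) and 748 lower (5.05%) with RVX208. For OTX015 against DMSO, 3800 genes were called (25.7%). Both comparisons with DMSO use the same DMSO arrays. Of the 556 genes called against DMSO and against OTX015, 531 lay nearer to DMSO with RVX208 than with OTX015, and 25 lay farther from it. Another 410 genes were called against DMSO and not against OTX015.

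Lists are given side by side, with no test of the difference between them. Of 32 DNA replication genes, 31 were higher with RVX208 than with OTX015 in the direct test and 0 lower, with a median difference from DMSO of -0.18 for RVX208 and -0.75 for OTX015. Of 84 ribosome biogenesis genes 66 were higher and 0 lower with RVX208 than with OTX015 (medians from DMSO -0.19 and -0.56). Of 22 neutrophil granule genes only 1 was higher and 1 lower (medians from DMSO -0.25 and -0.08). Taken gene by gene, the median of RVX208 minus OTX015 in this list was -0.009, so the gap between its 2 medians is not a typical difference of its genes. In the granule list 17 of the 22 genes were dim. At the far end, SCIMP, an adaptor of Toll-like receptor signalling, fell to 7.80, 7.83 and 7.77 with RVX208 and to 5.78, 5.76 and 5.84 with OTX015, against 8.16, 8.13 and 8.13 with DMSO. ARRDC4 rose by 0.76 with RVX208 and by 2.76 with OTX015, and IGF1 fell by 0.72 and by 2.86, in that order, with direct adjusted p = 1.14e-09 for ARRDC4 and 1.70e-09 for IGF1.

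Some of the named genes were not called between the compounds. Of 183 named genes called against DMSO, 132 were called in the direct test and 51 were not. CST7 differed from DMSO by -1.10 with RVX208 and by -1.16 with OTX015, and the direct difference was 0.06 with a 95% interval of -0.14 to 0.27 (limma adjusted p = 0.767). POPDC1 rose by 0.87 with RVX208 and 0.91 with OTX015 (direct difference -0.05, interval -0.22 to 0.13). The homing receptor CXCR4 gave -0.40 with RVX208 and -0.44 with OTX015 (direct difference 0.05, interval -0.08 to 0.17), and the hyaluronan receptor CD44 -0.41 and -0.43 (direct difference 0.02, interval -0.14 to 0.18). LINC00977, an intergenic noncoding RNA, gave -0.87 with RVX208 and -0.83 with OTX015 (direct difference -0.04, interval -0.29 to 0.21). Each of these intervals spans 0 and includes small differences in both directions.

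Among the 25 genes farther from DMSO with RVX208 than with OTX015, 19 were higher and 6 lower than in DMSO arrays. Only 11 of the 25 kept their call against DMSO whichever array was left out, and 14 lost it without at least 1 array, among them CTSS, FGL2, LCE2D and PTPRN2-AS1. OTX015 was not called against DMSO in 22 of them and was called the opposite way in 2, LCE2D and PTPRN2-AS1. HIC1 had the widest gap among those with a mean level above 5 and a RVX208 call in each fit without an array. It read 6.81, 6.81 and 6.59 with RVX208 and 5.92, 6.07 and 6.13 with OTX015, against 5.82, 5.84 and 5.88 with DMSO (RVX208 minus OTX015 0.70, limma adjusted p = 2.19e-04). With DW71177 at 300 nM, for which 19.8% of all genes were called against DMSO, HIC1 lay 0.42 above DMSO.

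MYOF, which encodes the membrane repair protein myoferlin, read 6.15, 6.25 and 6.12 with RVX208 and 5.77, 5.77 and 5.84 with OTX015, against 5.58, 5.57 and 5.61 with DMSO (direct adjusted p = 3.48e-04 in limma). RASGRP4, a Ras activator of myeloid cells, lay 0.49 above DMSO with RVX208 and 0.14 above it with OTX015 (direct adjusted p = 5.93e-04), and 0.38 above it with DW71177. MYO1G, a myosin of blood cells, averaged 9.92 with RVX208, 9.55 with OTX015 and 9.57 with DMSO. N4BP3, a binding partner of NEDD4 ligases, averaged 4.32 with RVX208, 4.82 with OTX015 and 4.88 with DMSO (direct adjusted p = 8.29e-04). MIRLET7A2 averaged 2.51 with RVX208 and 1.65 in both other groups. MYOF, RASGRP4, MYO1G and N4BP3, with SEPHS2, KGD4, LTC4S and ALOX5AP, are outside the rule for named genes and were picked after their values were seen, because their call against DMSO held in every fit that left out an array.

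**Figure D5:**
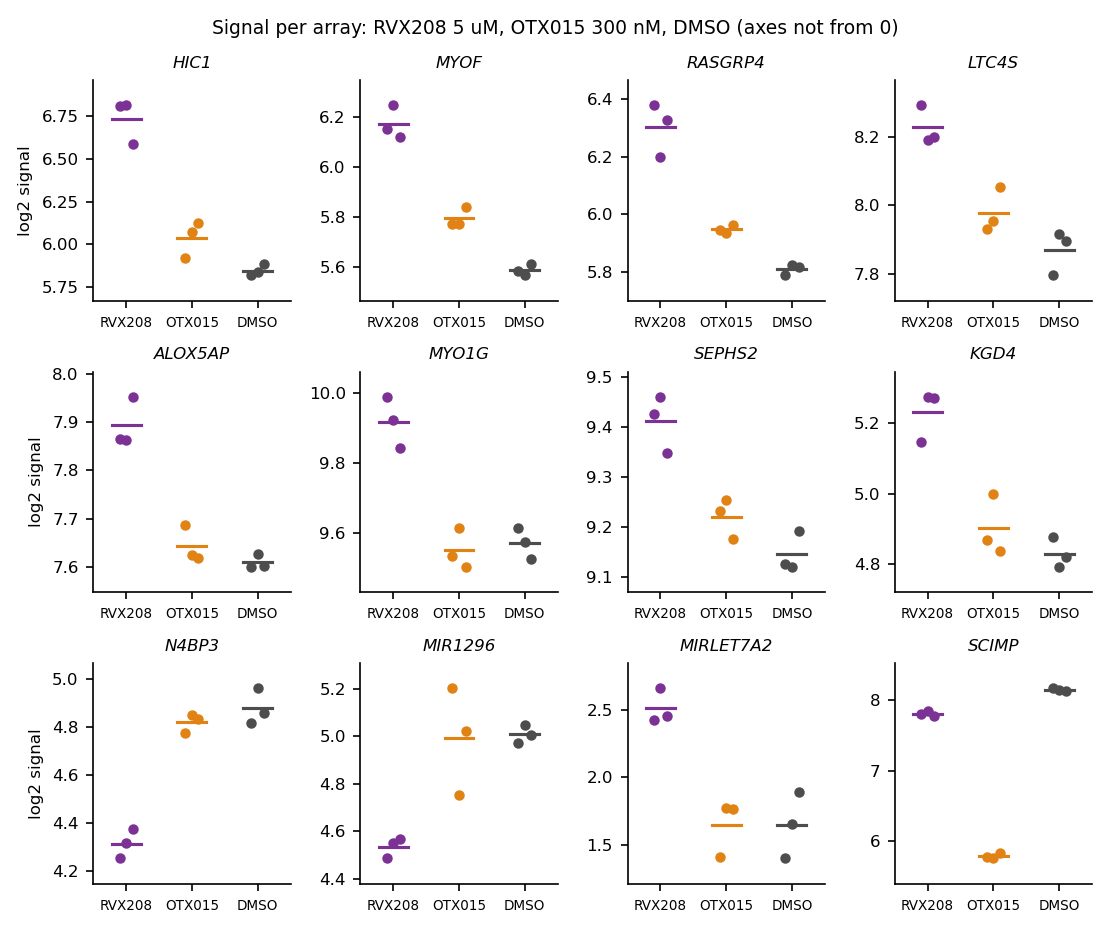
Log2 signal per array (y axes differ and do not start at 0) for RVX208 at 5 uM, OTX015 at 300 nM and DMSO, with bars for group means. The first 11 genes were chosen because RVX208 lies farther from DMSO than OTX015 does, and SCIMP because it lies less far, with OTX015 at 5.76 to 5.84.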

How the data were processed

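Total RNA was extracted with RNeasy, converted to sense cDNA carrying biotin and read on a whole-transcript Affymetrix array, per the labels' protocols. Deposited values were log2 signals of 44629 features on 15 arrays, normalized between arrays by the authors to judge from its near-equal quartiles; its method, its software and the build were not given in the sources used here. Such scaling removes change shared by all genes. The platform annotation named 15835 features with 1 gene each, and 28794 were unnamed. Of the 14812 genes, 651 had several features, and the one with the highest mean over 15 arrays was used, without a level filter.

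Differences were tested by lmFit and eBayes of limma 3.58.1 (R 4.3.3) in 1 fit of 5 group means with 10 residual degrees of freedom, two-sided, with Benjamini-Hochberg adjustment over 14812 genes and a threshold of 0.05. Errors after ± are standard errors of the fit unless named SD. The script was tested on simulated data. Lists are described by counts and medians, with no set test. Named genes are the 12 largest rises and 12 largest falls among called genes whose arrays do not overlap, up to 4 members per list with the smallest p, a list of well-known genes, and the 5 genes farthest beyond and the 5 farthest short of OTX015. Promoters were considered for list members named from lists with at least 1 in 3 called. The comparison, the lists and these rules were chosen with earlier results of these data known. Alternatives were another variance model, the 6 arrays alone, brighter genes only, quantile normalization, the mean of a gene's features, all features, the replicate number as a block and each array left out. Arrays give no counting depth, and their number limits the precision.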

Additional observations from a re-analysis of the deposited data

Results flagged for a closer look

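In a fit of all features, 420 of the 28794 features without a gene name in the platform table were called between RVX208 and DMSO, 211 higher and 209 lower with RVX208 (1.46%). They are singled out because no comparison above uses them. Their differences ranged from -1.58 to 1.45, and their median level in DMSO arrays was 3.31. What they measure was not analysed here.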

How the results depend on the processing

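The count of genes called between RVX208 and DMSO (966; 505 higher, 461 lower) came to 1485 (781 higher, 704 lower) with an intensity trend and robust variance, 954 of them shared, and to 609 with only the 6 arrays of both groups (301 higher, 308 lower), 548 shared. It was 564 to 636 with an array left out (282 to 344 higher, 270 to 305 lower). Brighter genes only gave 1318, quantile normalization 1057, the mean of features 961 and all features 959. For RVX208 against OTX015 (2153; 1405 higher, 748 lower), the 6-array fit gave 1353 (906 higher, 447 lower) and leaving out an array 1613 to 1920 (1064 to 1238 higher, 518 to 682 lower). With the replicate number as a block the counts were 875 (453 higher, 422 lower), 831 shared, and 2023. The labels do not say what the replicate numbers mean. Deviations of same-numbered RVX208 and DMSO arrays correlated at 0.002 to 0.015, and those of differently numbered ones at -0.012 to 0.001. Such values cannot show whether same-numbered arrays shared a culture or day. Of 183 named genes called, 119 kept the call in every alternative and 64 lost it in at least 1, of which 56 only with an array left out or in the 6-array fit. Of 46 not called, 22 passed in at least 1 alternative, and 0 of the 229 named genes reversed direction. Fewer arrays leave fewer degrees of freedom; the cause of the larger count with the variance model was not tested. Dim genes are limited by the unknown background.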

Other observations

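Genes of leukotriene synthesis were looked at after their values had been seen, because LTC4S and ALOX5AP were among the genes farther from DMSO with RVX208 than with OTX015. Leukotrienes are lipid signals of myeloid cells: ALOX5AP presents arachidonic acid to ALOX5, LTA4H makes leukotriene B4 and LTC4S makes leukotriene C4. LTC4S read 8.29, 8.19 and 8.20 with RVX208 and 7.93, 7.95 and 8.05 with OTX015, against 7.80, 7.92 and 7.90 with DMSO. It rose by 0.36 ± 0.06 with RVX208 (limma adjusted p = 0.00178), while OTX015 lay 0.11 above DMSO (adjusted p = 0.207), and the direct difference was 0.25 (adjusted p = 0.0091). ALOX5AP rose by 0.28 ± 0.05 with RVX208 (adjusted p = 0.00525) and lay 0.03 above DMSO with OTX015 (adjusted p = 0.73). LTA4H read 5.24, 5.08 and 4.92 with RVX208 and 5.77, 5.82 and 5.76 with OTX015, against 4.45, 4.31 and 4.35 with DMSO, a rise of 0.71 ± 0.13 with RVX208 (adjusted p = 0.00403) and a difference of 1.41 with OTX015. ALOX5 averaged 4.17 with RVX208, 4.07 with OTX015 and 4.24 with DMSO and did not pass the test in these arrays (adjusted p = 0.826 for RVX208). With DW71177 at 300 nM, LTC4S lay 0.33 and ALOX5AP 0.20 above DMSO.

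SEPHS2, which makes the selenium donor for selenoproteins, lay 0.27 above DMSO with RVX208 and 0.07 with OTX015 (direct limma adjusted p = 0.0222). KGD4, a subunit of the mitochondrial 2-oxoglutarate dehydrogenase complex, lay 0.40 above DMSO with RVX208 and 0.07 with OTX015 (direct adjusted p = 0.00355). With DW71177 it lay 0.31 above DMSO (adjusted p = 0.00325) and with DW71374, also at 300 nM, 0.27 above it (adjusted p = 0.661).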
